A study of Rattus norvegicus with 6 samples.

Results

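The genes described here make cholesterol and fatty acids: the enzymes of the mevalonate pathway, the enzymes that turn squalene into cholesterol, the SREBP regulators that control both, and the enzymes of fatty acid synthesis, desaturation and elongation. They were taken as a list of 35 named genes, and 31 of them were measured by 485 probe sets with exactly 1 gene symbol, out of 13379 genes measured in all. Hmgcs1, Mvk, Fasn and Elovl1 were not analysed here. The samples were L5 dorsal root ganglia (DRG) of male Wistar rats, either 7 days after the L5 spinal nerve had been cut (spinal nerve transection, SNT) or from naive animals without surgery. Each group had 3 samples, each a pool of ganglia from 4 animals with its polyadenylated RNA on 1 Affymetrix Rat Exon array. The naive animals had no sham operation, so anaesthesia and surgery cannot be told apart from the nerve injury.

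A DRG holds the cell bodies of sensory neurones, wrapped by satellite glia, beside Schwann cells that myelinate the axons, and cholesterol is a main lipid of both myelin and neuronal membranes. Cells make it from acetyl-CoA by way of mevalonate, farnesyl diphosphate, squalene and lanosterol. SREBP transcription factors, encoded by Srebf1 and Srebf2, switch these enzymes on when sterols are scarce: Scap carries the precursors out of the endoplasmic reticulum, while Insig proteins hold them there when sterols are plentiful.

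Cholesterol synthesis genes were lower in SNT than in naive ganglia at every step measured. All 17 sterol synthesis enzymes passed the test as lower, with a median log2 fold change of -0.68, and Sqle and Cyp51 fell most, 2.01-fold each. Among these 17, Mvd and Fdps each lost the call in 5 of the 6 fits with 1 array left out. Among the regulators, Insig1 fell 1.84-fold, whereas Srebf1, Srebf2, Scap and Insig2 did not pass. Of the 9 fatty acid genes measured, 6 were lower, Acly was higher by 1.20-fold, and Acacb and Scd2 did not pass. In all, 24 of the 31 members were lower, 1 was higher and 6 did not pass, where 23.3% of all 13379 genes were lower and 12.9% higher at the same threshold (limma, adjusted p under 0.1).

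SREBPs act at the promoters of these genes together with the factors NF-Y and Sp1. Windows of 250 bases before to 50 bases after the start of each gene (RefSeq, GRCr8) were found for 26 measured members, and none was given for Pmvk, Fdft1, Sqle, Acaca and Elovl6. Both strands were searched. The NF-Y motif CCAAT was in 19 of the 26 windows (73.1%), against 38.1% of the 10995 windows of all genes tested. It was in 13 of the 19 windows of members lower in SNT (68.4%) and in 6 of the 7 windows of members not lower (85.7%). The Sp1 motif GGGCGG was in 18 windows (69.2%, against 49.8%) and the palindromic E-box CACGTG in 4 (15.4%, against 7.95%). The classical sterol regulatory element of the LDL receptor gene was in none of the 26 windows and in 1 window of all genes tested, and a looser form (TCACNCCAC) was in none of the 26 (against 1.03%). Its core (ATCACNC), searched after the others, was in 3 windows (11.5%, against 7.56%), those of Idi1, Srebf2 and Insig2. None of these letter matches overlapped another in the stretches printed below, and a match describes the letters in the window only.

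Nsdhl and Msmo1 are printed as examples of sterol synthesis genes that fell and whose windows hold several matches. Capitals mark CCAAT, which reads as ATTGG where it is on the other strand. In Msmo1 they also mark GGGCGG, which reads as CCGCCC where it is on the other strand. The Nsdhl stretch lies at chrX:155817110-155817359 (plus strand) with 5 matches and the Msmo1 stretch at chr16:29746863-29747112 (plus strand) with 6, both covering the 250 bases before the start:
Nsdhl: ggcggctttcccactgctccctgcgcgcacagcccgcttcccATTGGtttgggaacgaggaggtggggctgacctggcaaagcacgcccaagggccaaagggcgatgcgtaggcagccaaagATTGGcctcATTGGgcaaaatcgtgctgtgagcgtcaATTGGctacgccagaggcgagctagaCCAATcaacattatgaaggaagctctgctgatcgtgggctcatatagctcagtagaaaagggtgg
Msmo1: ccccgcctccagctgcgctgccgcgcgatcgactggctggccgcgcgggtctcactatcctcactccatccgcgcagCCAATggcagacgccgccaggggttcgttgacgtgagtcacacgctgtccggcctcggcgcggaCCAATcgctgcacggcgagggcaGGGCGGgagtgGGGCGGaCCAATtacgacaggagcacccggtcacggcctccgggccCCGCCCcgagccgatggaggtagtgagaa

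Stretches of 30 bases are printed for an E-box (CACGTG in capitals) in Insig1, the regulator that fell, and in Sc5d, and for the sterol element core (ATCACNC in capitals) in Idi1, which fell, and in Srebf2, which did not pass. Their places are chr4:8057832-8057861 for Insig1, chr8:51538421-51538450 for Sc5d and chr17:66547631-66547660 for Idi1, all on the minus strand, and chr7:115543139-115543168 on the plus strand for Srebf2:
Insig1: ggctgggtgagatCACGTGgcaccggcgac
Sc5d: tacgcggcttacCACGTGaccgcggcgacc
Idi1: cgtctgacatcATCACGCacacgcgcacac
Srebf2: gatgacgcgccATCACCCcatgagccgctt

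Values are log2 levels as normalised by the authors, combined over the probe sets of a gene. Levels are compared between arrays, not between genes. They are listed in the order of arrays 1, 2 and 3 of each group. A change is given as the log2 fold change of SNT over naive ± its standard error (SE) from limma, with 3 arrays per group and a p-value adjusted over all 13379 genes, and genes with an adjusted p under 0.1 were called. At this threshold 36.3% of all genes were called in either direction. The median log2 fold change was -0.58 over the 31 members and -0.02 over all genes. Every SNT array lay below every naive array in 27 members, against 28.9% of all genes, and above in 1 member, against 16.8% (45.7% in either direction). The median over all probe sets was 6.77, 6.88 and 6.88 on the SNT arrays, against 6.98, 6.93 and 6.96 on the naive arrays. Every SNT median thus lay below every naive median. Of all called genes 35.7% were higher in SNT, 46.1% after cyclic loess and 56.2% after median centring of the arrays. Centring put the median of all genes at 0.09 and that of the members at -0.47, with 21 members lower and 1 higher.

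The arrays of a group were not equally alike. Pearson's r over all probe sets was 0.958 to 0.969 among the SNT arrays and 0.984 to 0.986 among the naive arrays, with SNT 1 nearest to naive. SNT 2 held the lowest value of all 6 arrays in 26 of the 31 members and in 2747 of the 13379 genes. The median change of the members against the naive mean was -0.42, -0.84 and -0.47 for SNT 1, 2 and 3. Without SNT 1, 24 members were lower and 1 higher, and without SNT 2, 22 were lower and none higher. Without naive 1 the count of lower members dropped to 15, and that of lower sterol synthesis genes to 10, in a table where 14.8% of all genes were then lower.

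**Figure D1:**
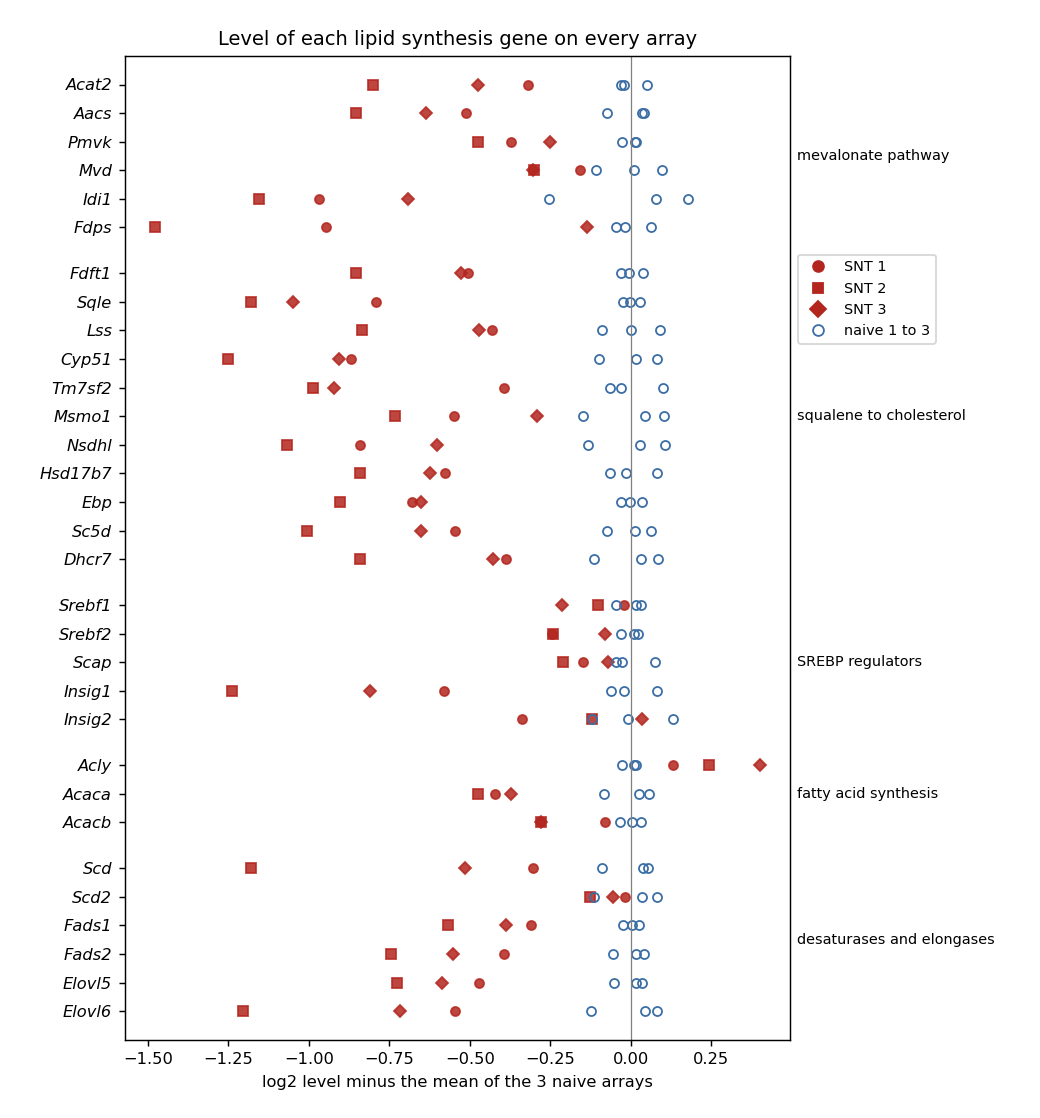
Each row is 1 of the 31 measured genes, grouped by role, and each symbol is 1 array (filled red, SNT 1 to 3; open blue, naive 1 to 3), placed on the x axis by its log2 level minus the mean of the 3 naive arrays. The SNT symbols of the 17 sterol synthesis genes all lie left of the naive symbols, Acly alone lies to the right, and Srebf1, Insig2 and Scd2 overlap.

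The mevalonate pathway builds farnesyl diphosphate from acetyl-CoA, and all 6 enzymes measured were lower in SNT, with a median change of -0.60 (log2). Without naive 1, 2 of the 6 passed, and without naive 2, 3 did. With each gene represented by its most variable probe set, 2 passed. Acat2, the cytosolic thiolase that joins acetyl-CoA units, had log2 levels of 9.85, 9.37 and 9.70 on the SNT arrays, against 10.22, 10.15 and 10.14 on the naive arrays. The naive values lay close together and all SNT values were below them (-0.53 ± 0.13, adjusted p = 0.0235). Aacs, which makes acetoacetyl-CoA from the ketone body acetoacetate, had 8.24, 7.90 and 8.11 in SNT and 8.79, 8.79 and 8.68 in naive ganglia. It was 1.59-fold lower (-0.67 ± 0.11, adjusted p = 0.00584), without overlap. The call of Acat2 was lost without SNT 3 (-0.53, adjusted p = 0.101) or naive 1 (-0.50, adjusted p = 0.125).

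Pmvk, phosphomevalonate kinase, was at 7.71, 7.60 and 7.83 in SNT, against 8.09, 8.09 and 8.05 in naive ganglia. The groups did not overlap, and the fall was smaller than in most of the pathway (-0.37 ± 0.09, adjusted p = 0.0247). Mvd, the decarboxylase that yields isopentenyl diphosphate, had the smallest fall of the 17 sterol synthesis genes, with 7.67, 7.53 and 7.52 in SNT, against 7.92, 7.72 and 7.84 in naive ganglia. SNT 1 lay just under the lowest naive array (-0.26 ± 0.10, adjusted p = 0.0942). Without naive 1 Pmvk had an adjusted p of 0.126 and without naive 2 of 0.151. Among the fits with 1 array left out, Mvd kept its call only without SNT 1, and lay between -0.16 (adjusted p = 0.368, without naive 1) and -0.21 (adjusted p = 0.212, without naive 2) when a naive array was left out. Its adjusted p was 0.2 without SNT 2 (-0.18) and 0.202 without SNT 3 (-0.21). The call of Mvd was also lost at a false discovery rate of 0.05, after cyclic loess (-0.18, adjusted p = 0.237) or median centring (-0.15, adjusted p = 0.311), with the mean (-0.25, adjusted p = 0.102) or the most variable (-0.23, adjusted p = 0.736) of its probe sets, and with the replicate number as a block (adjusted p = 0.17).

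Idi1, which converts isopentenyl diphosphate into its reactive isomer, had the largest fall of the pathway. Its levels were 7.91, 7.73 and 8.19 on the SNT arrays, against 9.06, 8.63 and 8.96 on the naive arrays. Naive 2 was the lowest naive array and still lay above SNT 3, the highest SNT array (1.92-fold lower, -0.94 ± 0.16, adjusted p = 0.0062). Fdps, farnesyl diphosphate synthase, stands at the branch to squalene, dolichol and protein prenylation. It was measured by only 2 probe sets, at 9.04, 8.50 and 9.85 in SNT, against 9.96, 10.05 and 9.94 in naive ganglia. SNT 3 lay just below the naive arrays and SNT 2 far below them (-0.85 ± 0.30, adjusted p = 0.0755). Fdps lost its call without any 1 array except SNT 3: the fall was -0.81 without SNT 1 (adjusted p = 0.197), -0.54 without SNT 2 (adjusted p = 0.204) and -0.82 to -0.88 without a naive array (adjusted p = 0.213 to 0.25). It was also lost after median centring (-0.74, adjusted p = 0.105), with the most variable probe set (-1.21, adjusted p = 0.127) and at a false discovery rate of 0.05.

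All 11 enzymes from squalene synthesis to cholesterol were measured and all were lower in SNT, with a median log2 fold change of -0.73 and no overlap between the groups in any of them. Fdft1, squalene synthase, makes the first committed step to sterols. It had 11.11, 10.76 and 11.09 in SNT, against 11.59, 11.65 and 11.61 in naive ganglia, and SNT 1 and SNT 3 were nearly equal (-0.63 ± 0.12, adjusted p = 0.00792). Sqle, squalene epoxidase, catalyses a rate-limiting oxidation, and stood at 9.12, 8.74 and 8.87 in SNT, against 9.94, 9.91 and 9.89 in naive ganglia. Its lowest naive array was well above its highest SNT array, and the level was 2.01-fold lower (-1.01 ± 0.12, adjusted p = 0.00231), the smallest adjusted p among the members. Lss closes the epoxide into lanosterol, the first sterol, and had 8.26, 7.85 and 8.22 in SNT, against 8.78, 8.60 and 8.69 in naive ganglia. Only SNT 2 stood apart from the other SNT arrays (-0.58 ± 0.13, adjusted p = 0.0157). The call of Lss was lost without naive 1 (-0.50, adjusted p = 0.102).

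Cyp51, the cytochrome P450 that demethylates lanosterol, was at 9.61, 9.22 and 9.57 in SNT, against 10.56, 10.38 and 10.49 in naive ganglia. The fall was 2.01-fold (-1.01 ± 0.13, adjusted p = 0.00278). Tm7sf2, a sterol reductase acting on the product of Cyp51, had 7.87, 7.28 and 7.34 in SNT, against 8.36, 8.20 and 8.23 in naive ganglia. Of the SNT arrays, SNT 1 was nearest to naive (-0.77 ± 0.16, adjusted p = 0.0133).

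A set of 3 enzymes then strips a pair of methyl groups from the sterol ring, and all 3 were lower. Msmo1, the oxidase of this set, is annotated under its earlier name Sc4mol. Its levels were 10.02, 9.84 and 10.28 on the SNT arrays and 10.61, 10.42 and 10.68 on the naive arrays, with SNT 3 just under naive 2 (-0.52 ± 0.14, adjusted p = 0.0266). Nsdhl, the decarboxylating dehydrogenase, had 9.14, 8.91 and 9.37 in SNT, against 10.08, 9.84 and 10.00 in naive ganglia. It was 1.79-fold lower (-0.84 ± 0.14, adjusted p = 0.00556). Hsd17b7, the ketone reductase, was at 8.01, 7.74 and 7.96 in SNT, against 8.67, 8.57 and 8.52 in naive ganglia, with little spread in either group (-0.68 ± 0.10, adjusted p = 0.00455). Of these, Msmo1 lost its call without naive 1 (-0.49, adjusted p = 0.112) or naive 3 (-0.45, adjusted p = 0.107).

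The last enzymes move and reduce the remaining double bonds. Ebp, the sterol isomerase, had 8.64, 8.41 and 8.67 in SNT, against 9.31, 9.29 and 9.35 in naive ganglia. The SNT arrays were alike and all far below naive (-0.74 ± 0.10, adjusted p = 0.00327). Sc5d, a sterol desaturase annotated under its earlier name Sc5dl, was at 10.36, 9.90 and 10.26 in SNT, against 10.92, 10.84 and 10.97 in naive ganglia (-0.73 ± 0.13, adjusted p = 0.00758). Dhcr7, which reduces dehydrocholesterol to cholesterol, had 8.22, 7.76 and 8.18 in SNT, against 8.69, 8.64 and 8.49 in naive ganglia. SNT 2 was again the lowest array (-0.55 ± 0.14, adjusted p = 0.0252). Dhcr7 lost its call without naive 1 (-0.49, adjusted p = 0.129) or naive 2 (-0.50, adjusted p = 0.137).

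Of the 5 SREBP regulators only Insig1 passed. Insig1 retains the SREBP precursors in the endoplasmic reticulum and is itself a target of SREBPs. It was at 9.67, 9.01 and 9.44 on the SNT arrays, against 10.33, 10.23 and 10.19 on the naive arrays, with all SNT values below naive and SNT 2 lowest (1.84-fold lower, -0.88 ± 0.17, adjusted p = 0.0089). Insig2, its relative, had 7.46, 7.68 and 7.83 in SNT, against 7.93, 7.68 and 7.79 in naive ganglia, and the groups overlapped (-0.14 ± 0.13, adjusted p = 0.453).

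Srebf2 encodes the SREBP best known for sterol genes and had 9.42, 9.42 and 9.58 in SNT, against 9.69, 9.67 and 9.63 in naive ganglia. Each SNT value lay below the naive values, but the difference did not pass (-0.19 ± 0.09, adjusted p = 0.163). It passed without SNT 3 (-0.22, adjusted p = 0.0823) and with the mean of the probe sets (-0.24, adjusted p = 0.092). Srebf1, whose products act mainly on fatty acid genes, was at 8.21, 8.13 and 8.02 in SNT, against 8.25, 8.19 and 8.26 in naive ganglia. The groups overlapped (-0.11 ± 0.09, adjusted p = 0.41), and the value was 0.0024 after median centring. Scap, the escort of SREBPs, had 8.60, 8.54 and 8.68 in SNT, against 8.82, 8.72 and 8.70 in naive ganglia. SNT 3 lay just under naive 3, and the difference did not pass (-0.14 ± 0.09, adjusted p = 0.282).

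Fatty acid synthesis starts from citrate, and of its 3 enzymes measured 1 was higher, 1 was lower and 1 did not pass. Acly, ATP citrate lyase, supplies the cytosolic acetyl-CoA used for both fatty acids and sterols. It had 10.35, 10.46 and 10.62 in SNT, against 10.23, 10.19 and 10.24 in naive ganglia. Every SNT array was above every naive array, and it was the only member that rose (1.20-fold, 0.26 ± 0.10, adjusted p = 0.096). Among the fits with 1 array left out, its call held only without SNT 1: the adjusted p was 0.151 without SNT 2 (0.27), 0.195 without SNT 3 (0.17) and 0.163 to 0.193 without a naive array (0.23 to 0.26).

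Acaca, the cytosolic acetyl-CoA carboxylase that sets the rate of fatty acid synthesis, was at 8.63, 8.58 and 8.68 in SNT, against 9.11, 8.97 and 9.08 in naive ganglia. The arrays of each group were close together and the groups apart (-0.42 ± 0.09, adjusted p = 0.0119). Acacb, the carboxylase of the outer mitochondrial membrane whose product restrains fatty acid oxidation, was between 5.86 and 6.06 in SNT and between 6.11 and 6.17 in naive ganglia. The groups did not overlap, but the difference did not pass (-0.21 ± 0.09, adjusted p = 0.137). It passed without SNT 1 (-0.20, adjusted p = 0.0331), with the mean of the probe sets (-0.28, adjusted p = 0.0746) and with array weights (-0.27, adjusted p = 0.033).

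Among the desaturases and elongases, 5 of the 6 measured were lower in SNT (median -0.58 on the log2 scale). The number lower was 3 without naive 1 and 2 with the most variable probe sets. The probe sets of the stearoyl-CoA desaturases, which make oleate and palmitoleate, were renamed from the earlier names in the GRCr8 gene table: those annotated Scd1 were taken as Scd, and those annotated Scd as Scd2. The probe sequences were not checked, so which of the Scd genes fell rests on this naming. Scd had 11.28, 10.40 and 11.07 in SNT, against 11.63, 11.49 and 11.62 in naive ganglia. SNT 2 was far below all other arrays (-0.67 ± 0.21, adjusted p = 0.0562). Scd2 was between 12.75 and 12.86 in SNT and between 12.76 and 12.96 in naive ganglia, an overlap without a call (-0.07 ± 0.09, adjusted p = 0.642, 0.05 after median centring). Taken as 1 gene, the 13 probe sets gave -0.13 (adjusted p = 0.314). The call of Scd was lost without SNT 3 (-0.68, adjusted p = 0.118), naive 1 (-0.62, adjusted p = 0.173) or naive 3 (-0.63, adjusted p = 0.159), after median centring (-0.56, adjusted p = 0.111) and at a false discovery rate of 0.05, and the fall was -1.03 without SNT 1.

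Fads1 and Fads2 are the desaturases that lead to arachidonic and docosahexaenoic acid. Fads1 was at 10.89, 10.63 and 10.81 on the SNT arrays, against 11.23, 11.20 and 11.18 on the naive arrays. The naive values differed little and the SNT values lay below them (-0.42 ± 0.10, adjusted p = 0.0175), though the call was lost without naive 1 (-0.37, adjusted p = 0.133). Fads2 had 10.55, 10.20 and 10.39 in SNT, against 10.96, 10.89 and 10.98 in naive ganglia, again without overlap (-0.57 ± 0.11, adjusted p = 0.00998).

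Elovl5 lengthens polyunsaturated fatty acids and had 11.25, 10.99 and 11.13 in SNT, against 11.75, 11.73 and 11.67 in naive ganglia. The spread within groups was small against the gap between them (-0.59 ± 0.10, adjusted p = 0.00564). Elovl6 lengthens palmitate to stearate and stood at 11.03, 10.37 and 10.86 in SNT, against 11.62, 11.45 and 11.65 in naive ganglia. Its fall was the largest of the fatty acid genes (1.77-fold lower, -0.82 ± 0.17, adjusted p = 0.0125).

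At the level of single probe sets, each about 1 exon, 149 of the 485 member probe sets were lower (30.7%) and none was higher (limma; 8 were higher at an unadjusted p under 0.05), against 10.7% lower and 5.16% higher of all 226599 probe sets. The enzymes from squalene to cholesterol had 81 of 129 lower (62.8%), the mevalonate pathway 21 of 63, the desaturases and elongases 19 of 52, fatty acid synthesis 17 of 140 and the regulators 11 of 101. All 14 probe sets of Sqle were lower, between -1.72 and -0.71, and 13 of 14 of Cyp51, whose probe sets ran from -1.80 to -0.28. Acly was the reverse case: all 30 probe sets were positive, between 0.05 and 0.47, and none passed singly. The count of 149 dropped to 35, 45 and 62 without naive 1, 2 and 3 and to 80 without SNT 2, and was 181 without SNT 1.

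**Figure D2:**
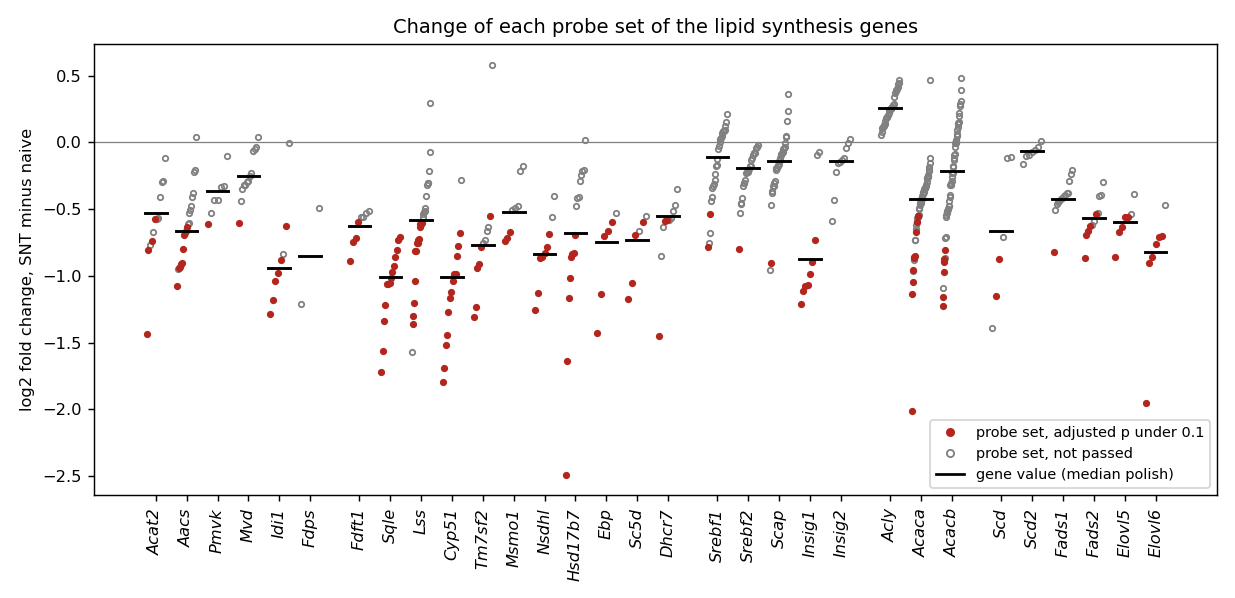
Each circle is 1 of the 485 probe sets of the measured genes, placed on the y axis by its log2 fold change, SNT minus naive (filled red, adjusted p under 0.1; open grey, not passed), and each black bar is the value of the gene. The 14 circles of Sqle are all red and below -0.70, and the 30 of Acly are all grey and above 0.

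The probe sets of a gene did not always move equally. A test of unequal change (diffSplice, adjusted over 10742 genes) was passed by 12 of the 30 members tested, against 19.5% of all genes tested: Lss, Cyp51, Tm7sf2, Hsd17b7, Ebp, Srebf1, Scap, Insig1, Acaca, Acacb, Scd and Elovl6. None of the 30 passed without naive 1 or without naive 2, 2 passed without naive 3, 7 without SNT 1 and 16 without SNT 2.

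Insig1 had 7 of 9 probe sets lower, between -1.21 and -0.73, beside 2 probe sets at -0.08 and -0.10. In Scd the brightest pair of probe sets, with log2 levels from 12.62 to 13.20 in SNT and from 12.75 to 13.32 in naive ganglia, were at -0.12 and -0.11, and the other 4 lay between -1.39 and -0.71. The widest range was that of Hsd17b7, from -2.49 to 0.02. Its most changed probe set had 4.19, 3.31 and 6.43 in SNT, against 7.07, 7.42 and 6.93 in naive ganglia, so SNT 3 stood close to naive there. Elovl6 had 1 probe set at -1.95, with 6.05, 6.75 and 7.70 in SNT, against 9.00, 8.65 and 8.71 in naive ganglia, while its other 6 lay between -0.90 and -0.47. In Tm7sf2 a single probe set was positive (0.58, adjusted p = 0.188) and the other 10 lay between -1.31 and -0.55. Srebf1 had 2 probe sets lower, at -0.78 and -0.54, among 27 that reached up to 0.21.

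Other genes of lipid metabolism were set beside the members, as 5 lists with 63 genes measured. Of these 63 genes, 7 were higher and 30 lower in SNT. Over all genes tested, 12.9% were higher and 23.3% lower, the shares to set beside each list below. Genes that handle cholesterol after it is made moved both ways. Of 18 measured for uptake, transport, esterification and efflux, 5 were higher (27.8%), 3 lower (16.7%) and 10 did not pass, with a median of 0.27. Abca1, the pump that exports cholesterol from cells, had 10.37, 10.93 and 10.75 in SNT, against 9.07, 8.97 and 8.88 in naive ganglia. It was 3.27-fold higher (1.71 ± 0.15, adjusted p = 0.00141), with SNT 1 the lowest SNT array. Soat1, which esterifies cholesterol for storage, was higher by 0.92 ± 0.21, Lrp1, a lipoprotein receptor, by 0.65 ± 0.15 and Npc2, a lysosomal cholesterol carrier, by 0.64 ± 0.17 (adjusted p = 0.0168, 0.017 and 0.0293). Npc2 lost its call without naive 1 (0.63, adjusted p = 0.137) or naive 2 (0.63, adjusted p = 0.102). The number higher was 10 of 18 without SNT 1 and 3 without naive 1, 9 after median centring, 10 with array weights and 2 with the most variable probe sets.

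Of 5 other sterol synthesis and SREBP processing genes measured, 2 were lower and 3 did not pass. Ggps1, which makes geranylgeranyl diphosphate, changed by -0.99 ± 0.18 and Acat1, the mitochondrial thiolase, by -0.46 ± 0.08 (adjusted p = 0.00687 and 0.00684). Without SNT 1, after cyclic loess, after median centring and with array weights, 2 of the 5 were higher.

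Among 10 other genes of elongation and acetyl-CoA supply, 5 were lower and 1 higher, with a median of -0.30. None was higher without any 1 of the naive arrays, and 2 were without SNT 2. Elovl2, an elongase of polyunsaturated fatty acids, changed by -1.21 ± 0.17, Me1, the malic enzyme that supplies NADPH, by -0.78 ± 0.09, and Hsd17b12, a reductase of the elongation cycle, by -0.58 ± 0.10 (adjusted p = 0.00367, 0.00216 and 0.00701). Oxsm, of mitochondrial fatty acid synthesis, changed by -0.48 ± 0.13 (adjusted p = 0.0288) and lost its call without naive 1 (-0.56, adjusted p = 0.173).

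Among the genes listed for fatty acid oxidation, 12 of 16 were lower and none higher, with a median of -0.38 (limma). At an unadjusted p under 0.05, 13 were lower and 1 higher. The list holds enzymes and carriers of fatty acid breakdown and also regulators, such as Ppara, Ppard and Ppargc1a. The number lower was 6, 5 and 7 without naive 1, 2 and 3, 8 after median centring or with the replicate number as a block, and 6 with the most variable probe sets. Hadhb, a subunit of the trifunctional protein, changed by -0.73 ± 0.09 (adjusted p = 0.003), and Cpt2 and Slc25a20, which carry acyl groups into mitochondria, by -0.59 ± 0.12 and -0.58 ± 0.10 (adjusted p = 0.0129 and 0.00564). Ppargc1a, a transcriptional coactivator of mitochondrial genes, changed by -0.59 ± 0.15 (adjusted p = 0.0226) and lost its call without naive 1 (-0.58, adjusted p = 0.108) or naive 2 (-0.43, adjusted p = 0.146).

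In the list of acyl-CoA and triglyceride synthesis, 8 of 14 genes were lower and 1 higher, with a median of -0.34. Acsl6, an acyl-CoA synthetase of the nervous system, had 8.50, 7.25 and 7.56 in SNT, against 9.66, 9.70 and 9.57 in naive ganglia. Its fall was larger than that of any member (-1.88 ± 0.29, adjusted p = 0.00472). Agpat3, an acyltransferase of phospholipid synthesis, changed by -0.69 ± 0.15 and Mgll, the lipase of monoglycerides, by -0.68 ± 0.15 (adjusted p = 0.0137 and 0.0154). The 1 gene that rose was Acsl4, which activates arachidonic acid (0.67 ± 0.15, adjusted p = 0.0138). Its most variable probe set had the opposite sign (-0.15, adjusted p = 0.867), and 2 genes of the list were higher without SNT 1.

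**Figure D3:**
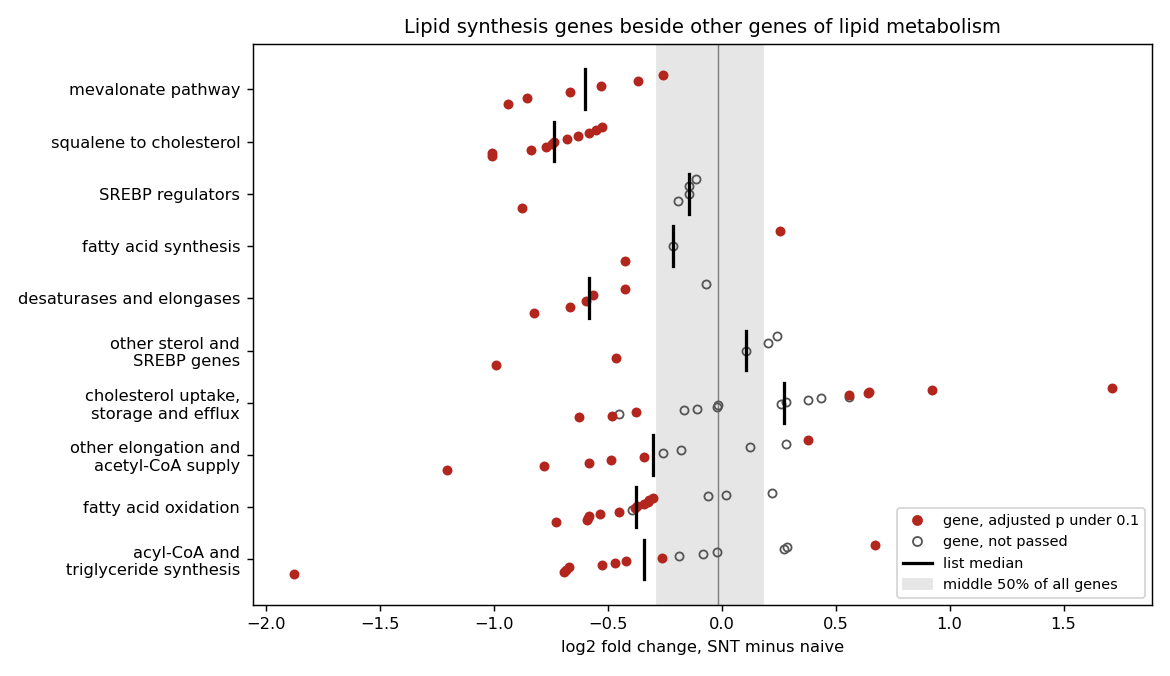
Each circle is 1 gene, placed on the x axis by its log2 fold change, SNT minus naive (filled red, adjusted p under 0.1; open, not passed), in rows by list, with a black bar at the median of the list, a grey band over the middle 50% of all genes tested and a line at their median. The medians of the mevalonate (-0.60), squalene to cholesterol (-0.73) and desaturase and elongase (-0.58) lists lie left of the band, and Abca1 (1.71) lies furthest to the right.

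The ganglion is a mixture, and in bulk tissue fewer cells of a type and less RNA per cell cannot be told apart. Sensory neurone markers were high on all arrays, at mean log2 levels of 10.75 to 11.33 in SNT and 11.73 to 11.84 in naive ganglia, far above the background level of 5.11 (the 25th percentile of all probe set means). Of 9 of 13 such markers measured, 6 were lower in SNT (66.7%, against 23.3% of all genes) and none higher (limma). At an unadjusted p under 0.05 the counts were 8 and 0. Their median log2 fold change was -0.69, within a wide range from -1.66 to -0.01. The sterol synthesis genes had a median of -0.68, within a range from -1.01 to -0.26. Snap25, Nefl, Nefm and Nefh of the marker list are among the genes that the paper lists as commonly dysregulated in pain models. Against the naive mean, the neurone markers were at -0.46, -0.95 and -0.65 on SNT 1, 2 and 3, and the sterol synthesis genes at -0.55, -0.85 and -0.60. Both sets were lowest on SNT 2 and highest on SNT 1, which rests on 3 arrays, and a link between the sets was not tested.

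Myelinating Schwann cells are a major source of cholesterol in nerve. Of 12 of 15 of their markers measured, 4 were higher (33.3%) and none lower (limma). The counts were also 4 and 0 at an unadjusted p under 0.05. Over all genes, 12.9% were higher and 23.3% lower, 36.3% in either direction, which holds beside each marker list. The Schwann cell markers had a median of -0.07 (0.04 after median centring). Their mean log2 levels were 9.79 to 10.21 in SNT and 9.63 to 10.09 in naive ganglia. None of the 12 was higher without SNT 2, naive 1 or naive 2, with 2 lower without naive 2, and without SNT 3, 1 was higher and 1 lower. Macrophage markers rose: 11 of 11 measured (of 12) were higher, with a median of 1.56, and their mean log2 level was 8.60 to 9.63 in SNT and 7.19 to 7.69 in naive ganglia. Without naive 1 or naive 2, 7 of the 11 passed, with medians of 1.48 and 1.47. Satellite glia markers went both ways, with 3 higher and 4 lower of 9 measured (of 10), a median of -0.23, and mean log2 levels of 9.23 to 9.30 in SNT and 9.35 to 9.43 in naive ganglia. Without naive 1, 2 were lower.

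Adipocyte markers stood near background, with mean log2 levels of 5.09 to 5.21 in SNT and 4.98 to 5.01 in naive ganglia over 7 measured of 10. Adipoq averaged 4.11 in SNT and 4.25 in naive ganglia and Fabp4 averaged 3.29 in SNT and 3.28 in naive ganglia, all below the background level, and 2 markers, Plin1 (0.27 ± 0.10, adjusted p = 0.0939) and Cidec (0.83 ± 0.09, adjusted p = 0.00222), were higher in SNT. These 2 were 28.6% of the 7 measured, where 12.9% of all genes were higher and 36.3% called in either direction. The number higher was 1 without any 1 array other than SNT 3, at a false discovery rate of 0.05 and with the replicate number as a block. Endothelial and fibroblast markers had 2 of 5 measured (of 10) higher and none lower (limma; 2 and 0 at an unadjusted p under 0.05), with a median of 0.24 and mean log2 levels of 9.92 to 10.22 in SNT and 9.59 to 9.93 in naive ganglia. The number higher was 1 without SNT 2, SNT 3, naive 1 or naive 2, 3 without SNT 1 or naive 3, and 4 after median centring. The part of the neurone, macrophage and glial markers in the fall of the sterol genes, and in the rise of Abca1, Soat1, Lrp1 and Npc2, was not tested.

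**Figure D4:**
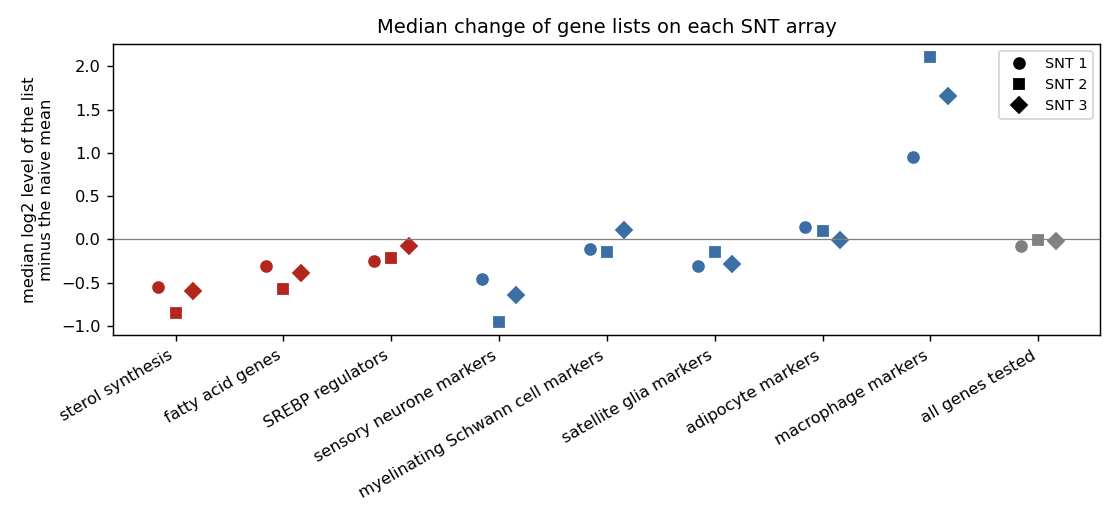
Each symbol is the median over a list of the log2 level on 1 SNT array minus the mean of the 3 naive arrays (circle, SNT 1; square, SNT 2; diamond, SNT 3), for the member groups (red), marker lists (blue) and all genes tested (grey). The sterol synthesis genes (-0.55, -0.85 and -0.60) and the sensory neurone markers (-0.46, -0.95 and -0.65) lie below 0, myelinating Schwann cell markers lie between -0.14 and 0.10, and macrophage markers lie between 0.96 and 2.11.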

How the data were processed

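Poly(A) RNA of 6 ganglion pools was hybridised to exon arrays, 1 array per pool. The authors deposited log2 values per probe set, made with RMA in the oligo package (background correction, quantile normalisation and median polish of probes). The version of oligo is not given in the sources used. Quantile normalisation makes each change relative to the whole array, and without detection calls a dim probe set still has a value. The table held 226599 probe sets, and 0 columns of per-sample values were unmapped.

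Probe sets were named by the platform annotation: 164162 had exactly 1 symbol, 2388 had several and 60049 had none, and the last 2 kinds were not used for genes. Symbols were updated through a GRCr8 gene table (13365 of 13411 matched). Probe sets of a gene were combined by Tukey median polish (at most 20 iterations, median of 10 probe sets, 1 only in 600 genes). SNT and naive were compared by lmFit and eBayes (limma 3.58.1, R 4.3.3), two-sided, with Benjamini-Hochberg adjustment over all features and a false discovery rate of 0.1 as in the study's methods. The same fit was made per probe set. Unequal change was tested by diffSplice (F test) in genes having at least 3 probe sets with a mean above 5.11. The number of arrays limits the precision. Pools were counted as separate samples. The gene fit and the test of unequal change were tried on simulated data with independent noise and an equal spread in both groups. In the real data the standard deviation was larger in SNT in 28 of the 31 members and in 10438 of the 13379 genes. The simulation did not cover that setting.

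The members and the lists were chosen with earlier results of these data known. Every member is named. Of each other lipid list the 4 called genes with the largest change are named (the 2 largest if fewer than 2 were called), and Plin1, Cidec, Adipoq and Fabp4 were picked after their values were seen. Alternatives covered the false discovery rate, normalisation, probe set summary, filters, variance model, array weights, each array left out and a replicate block. Those on the Scd names, the sterol synthesis genes and the other lipid genes were added after seeing the data.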

Additional observations from a re-analysis of the deposited data

How the results depend on the processing

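The values of the members kept their direction in most alternatives. Of 497 values recomputed for all 31 members, 439 kept direction and side of the threshold, 50 lost the call, 5 gained it and 3 changed sign. The 439 include values of the 6 members that did not pass and of Acly, which rose. Idi1, Sqle, Cyp51, Tm7sf2, Nsdhl, Hsd17b7, Ebp, Sc5d, Insig1, Acaca and Elovl6, 11 members, were lower at the threshold in every alternative run. When each gene was represented by its most variable probe set, 15 members were lower and 0 higher, 11 sterol synthesis genes were lower, the members' median was -1.09, and other lipid genes numbered 2 higher and 18 lower; Scap was then at 0.36 and Acsl4 at -0.15. After median centring Srebf1 was at 0.0024 and Scd2 at 0.048. Members called as higher fell to 0 at a false discovery rate of 0.05.

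Member probe sets called as higher numbered 4 after cyclic loess, 7 after median centring, 3 among probe sets above background only and 8 with a variance trend, in place of 0 by limma. Those called as lower numbered 76 at a false discovery rate of 0.05 and 94 after median centring. Other lipid genes called as higher numbered 14 after loess, 17 after centring and 16 with array weights.

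Leaving out 1 array gave 0 to 1 members higher, 15 to 24 lower, 10 to 16 sterol synthesis genes lower, 0 to 1 member probe sets higher, 35 to 181 lower, 0 to 16 members with unequal probe sets, and 4 to 16 other lipid genes higher and 20 to 31 lower. The smallest numbers of lower genes came without naive 1, and the cause was not tested. Same-numbered arrays of the groups correlated in their deviations at -0.07, -0.22 and 0.06. Differently numbered arrays correlated at -0.23 to 0.29. With 3 arrays per group, these values cannot decide whether the numbers pair the arrays. With the replicate number as a block, 23 members were lower and 0 higher, and 99 member probe sets were lower. The most changed probe sets of Hsd17b7 and Acaca lay near or below the background level in SNT.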
